A study of Hydra vulgaris with 5 samples.

Results

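The 5 entries described here are those that the deposited Hydra vulgaris tables name as beta-catenin or TCF, chosen by identifier and description out of 46156 listed entries. MSTRG.26401 and Sc4wPfr_975.g7262 are described as catenin_betalike, MSTRG.6132 and Sc4wPfr_177.g9412 as betacatenin_1, and MSTRG.6358 as TCF3_isoform. Single-cell 3′ libraries of Hydra strain 105 were made from hypostome, the cone around the mouth at the tip of the head (2 libraries), and from tissue regenerating a hypostome after bisection, at 0, 4 and 12 h (1 library per time point). Cells were freed with Pronase E, and the labels give no treatment beyond bisection. Nothing in the labels says whether the hypostome libraries came from separate animals, so the spread between them may be technical. The p-values rest on the spread within both tissues, and among the regenerating libraries that spread includes time.

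Beta-catenin joins cadherins to the cytoskeleton at cell contacts, and it is also the messenger of canonical Wnt signalling. Without a Wnt signal, a complex of axin, APC, glycogen synthase kinase 3 and casein kinase 1 marks it for destruction. With a signal it enters the nucleus and switches on genes together with TCF, the DNA-binding partner. In Hydra this pathway drives the head organizer that sits in the hypostome. Much of beta-catenin control acts on the protein, which transcript counts do not measure.

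The names carry limits. TCF3 names both a Wnt-pathway TCF and an unrelated helix-loop-helix factor, and the short description does not say which MSTRG.6358 is. The descriptions betacatenin_1 and catenin_betalike do not settle whether an entry codes for the signalling protein. MSTRG.6132 occurs with 4 descriptions and MSTRG.26401 with 2. Member values use only the beta-catenin ones, except where entries of the same identifier are named or summed. No identifier matched the RefSeq gene table used (0 found), so no sequence or coordinates are given.

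Libraries were unequal in depth. Barcodes with at least 200 detected genes numbered 110 in hypostome 1 and 168 in hypostome 2, and 2332, 2782 and 64 in the regenerating libraries of 0, 4 and 12 h, and held 136698, 230648, 1392466, 2495372 and 55274 counts. They were 5456 of 13993 barcodes. The barcodes below that limit held 62.3% of the counts of hypostome 1 and 72.3% of those of hypostome 2. They held 11.7% of the counts at 0 h, 8.04% at 4 h and 94.1% at 12 h. So the hypostome and 12 h values cover a smaller part of their libraries than those of 0 h and 4 h. Levels are counts per 1000000 counts of the library (CPM) over barcodes with at least 200 genes unless all barcodes are named. Intervals are exact and cover counting error only (95%, Poisson for levels, Clopper-Pearson for shares, conditional binomial for ratios). Depth sets the smallest level that can be seen: 3 counts equalled 1.20 CPM at 4 h and 54.3 CPM at 12 h. One other entry, MSTRG.22171, took 35.6% of the 4 h counts, against 4.63 to 13.1% in the other libraries, which lowers every CPM at 4 h. No barcode had identical counts in 2 libraries (0 found). Barcodes carry running numbers, so sharing by barcode sequence could not be counted.

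The TCF entry, MSTRG.6358, lay higher in the hypostome than in the regenerating libraries. It stood at 285 CPM (interval 203 to 390) in hypostome 1 and 238 CPM (180 to 310) in hypostome 2, against 94.8 CPM (79.3 to 112) at 0 h, 61.7 CPM (52.4 to 72.3) at 4 h and 109 CPM (39.8 to 236) at 12 h. Both hypostome libraries were above all 3 regenerating libraries. In order of level the libraries ran hypostome 1, hypostome 2, 12 h, 0 h, 4 h, and among neighbours in that order only the intervals of 0 h and 4 h were apart. The values rest on 39, 55, 132, 154 and 6 counts, and the 6 counts at 12 h lay in 3 of 64 barcodes. Over all barcodes the order of the regenerating libraries differed, and the tissues did not overlap. The hypostome libraries stood at 176.4 and 142 CPM. The regenerating ones stood at 95.7 CPM for 0 h, 59.0 CPM for 4 h and 42.8 CPM for 12 h. That set includes the barcodes above, so it is no separate observation. Among the barcodes it adds, those under 200 genes, hypostome 1 was at 111 CPM and hypostome 2 at 105 CPM. The 0 h level of such barcodes was 103 CPM, so little of the gap from 0 h remained. Only 4 h and 12 h stood clearly lower, at 27.5 and 38.6 CPM.

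Tested by edgeR's quasi-likelihood test on counts summed per library, the TCF entry had a log2 fold change of 1.29 ± 0.44 (SE, hypostome over regenerating, 2 against 3 libraries, unadjusted p = 0.028, adjusted p = 0.398 over 3022 entries). It did not pass an adjusted p of 0.05, and neither did any other of the entries tested (0 called, 0% of 3022). By edgeR 332 entries had an unadjusted p under 0.05, and DESeq2 called 6 entries and limma 0, none of them a member. An unadjusted p under 0.05 with a higher hypostome level was held by 241 of the 3022 entries (7.97%), and by 1 of the 3 members tested. Over 17 alternatives the log2 fold change of the TCF entry lay between 0.85 and 1.61, positive in each, and its adjusted p between 0.0635 and 1.00. Leaving out the 12 h library gave 1.25 ± 0.28 (SE, edgeR, adjusted p = 0.0657), in a fit where 180 of 7732 entries were called (2.33%). With library totals in place of TMM factors, the scaling that assumes most entries are alike, the median log2 fold change of all entries moved to 0.31 from 0.01, and that of the TCF entry was 1.61.

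**Figure D1:**
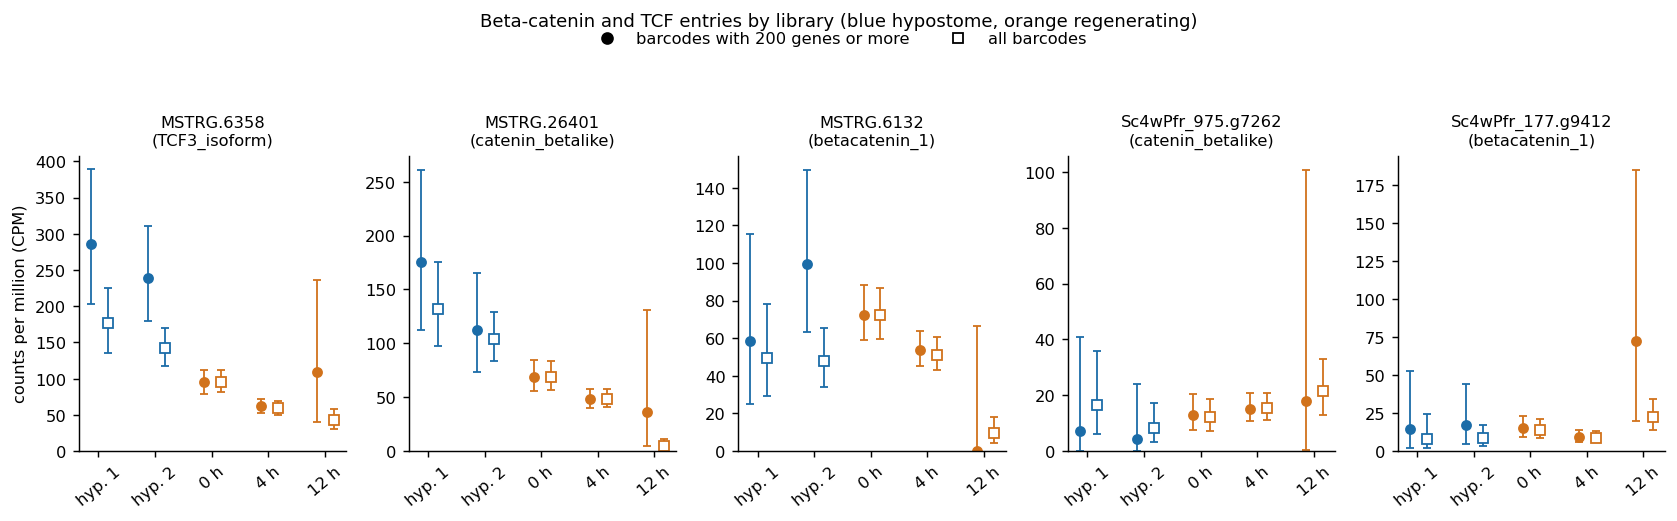
Level of each of the 5 entries in CPM (vertical axis) in the 2 hypostome libraries (blue) and the regenerating libraries (orange), over barcodes with at least 200 genes (filled circles) and over all barcodes (open squares). Bars are exact Poisson intervals (95%). The TCF entry stands at 285 and 238 CPM in the hypostome libraries, above 94.8, 61.7 and 109 CPM at 0, 4 and 12 h.

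Of the beta-catenin entries, MSTRG.26401 showed the same order of tissues. It had 175.6 CPM (interval 112 to 261) in hypostome 1 and 113 CPM (73.6 to 165) in hypostome 2, against 68.9 CPM (55.8 to 84.2) at 0 h, 48.5 CPM (40.2 to 57.9) at 4 h and 36.2 CPM (4.38 to 131) at 12 h. Both hypostome libraries were above all 3 regenerating libraries, although the intervals of hypostome 2 and 0 h overlapped. Its 2 counts at 12 h came from 1 barcode. The log2 fold change was 1.06 ± 0.46 (SE, edgeR, unadjusted p = 0.062, adjusted p = 0.493). It was positive under all 16 alternatives that could test it, between 0.71 and 1.81, with adjusted p from 0.147 to 1.00. Tissues that did not overlap with the hypostome above were found in 25.7% of the 3022 entries (778), and in 2 of the 3 members tested, so separation by itself was common in these libraries.

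MSTRG.6132, in its betacatenin_1 entry, did not follow that order. It had 58.5 CPM (interval 25.3 to 115) in hypostome 1 and 99.7 CPM (63.2 to 150) in hypostome 2, against 72.5 CPM (59.1 to 88.1) at 0 h, 53.7 CPM (44.99 to 63.6) at 4 h and 0 counts at 12 h, where 3 counts would be 54.3 CPM. The tissues overlapped. Its log2 fold change was 0.26 ± 0.71 (SE, edgeR, unadjusted p = 0.732, adjusted p = 0.984), and it turned negative under 5 of 16 alternatives, so no direction is given. Under the same identifier, the entry described as NA had 65.8 and 30.3 CPM in the hypostome, from 9 and 7 counts. It had 19.4 CPM at 0 h, 19.6 CPM at 4 h and 0 counts at 12 h. The anamorsin entry had 0 and 4.34 CPM in the hypostome, against 7.18, 5.21 and 18.1 CPM. With the entries of each identifier summed, MSTRG.6132 had a log2 fold change of 0.46 ± 0.60 (SE, edgeR, adjusted p = 0.925). A model with a term for each time point put the betacatenin_1 entry at 2.96 (edgeR, adjusted p = 0.196), where the 0 counts at 12 h enter as a time point of their own. That model called 314 of 3022 entries (10.4%) and none of the 3 members (0). The fold changes of these 3 entries under every setting are plotted side by side.

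**Figure D2:**
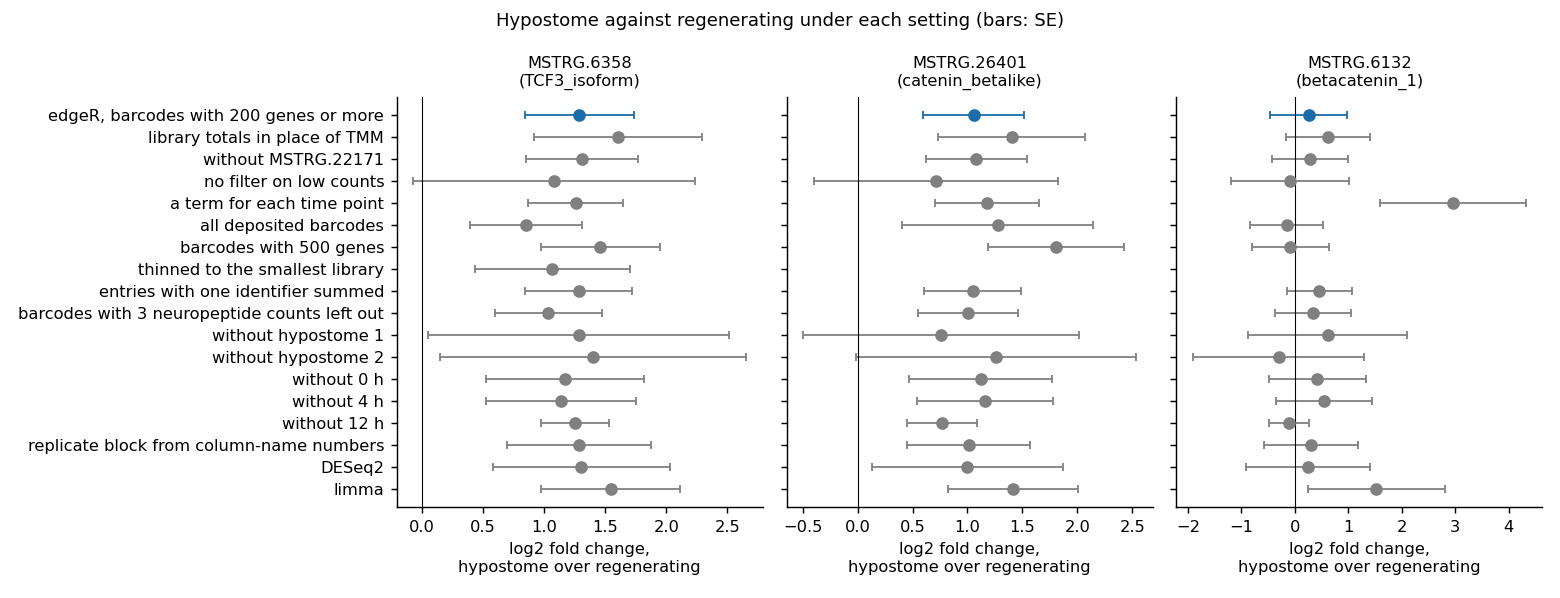
Log2 fold change, hypostome over regenerating (horizontal axis), for the TCF entry and the 2 tested beta-catenin entries under each setting (down the page). Points are estimates, bars 1 SE, and blue marks the fit used in the text. The TCF entry stays between 0.85 and 1.61, MSTRG.26401 between 0.71 and 1.81, and MSTRG.6132 lies on both sides of 0.

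Both Sc4wPfr entries were too sparse for the tissue test in the fit used in the text. Sc4wPfr_975.g7262 had 1 count in each hypostome library, against 18 at 0 h, 38 at 4 h and 1 at 12 h. Sc4wPfr_177.g9412 had 2 and 4 counts in the hypostome libraries, against 21 at 0 h, 23 at 4 h and 4 at 12 h, all of those 4 in 1 barcode. So 3 of the 5 members passed the filter on low counts. Sc4wPfr_975.g7262 was at 7.32 and 4.34 CPM in the hypostome, below 12.9 CPM at 0 h, 15.2 CPM at 4 h and 18.1 CPM at 12 h, but its hypostome intervals reached 40.8 and 24.2 CPM. Over all barcodes it had 16.5 and 8.40 CPM in the hypostome, against 12.0, 15.5 and 21.4 CPM, and the tissues overlapped. Under the 6 alternatives that tested it, its log2 fold change lay between -2.15 and -1.06. The hypostome lay below all regenerating libraries in 3.54% of the 3022 entries tested, which do not include Sc4wPfr_975.g7262. The other entry ranged from 9.22 to 17.3 CPM outside the 12 h library and had 72.4 CPM (interval 19.7 to 185) there. Its log2 fold change lay between -1.41 and -0.032 under the 6 alternatives that tested it.

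Summed, the 4 beta-catenin entries had 256 CPM (interval 178 to 356) and 234 CPM (175.9 to 305) in the hypostome libraries, against 169 CPM (149 to 193) at 0 h, 127 CPM (113 to 141) at 4 h and 127 CPM (50.9 to 261) at 12 h. Which entry carried the counts differed between libraries. Over all barcodes MSTRG.26401 held 380 of the 871 beta-catenin counts (43.6%) and MSTRG.6132 held 320 (36.7%). Over barcodes with at least 200 genes they were almost level, with 269 and 266 of 648. With at least 500 genes MSTRG.6132 led, with 129 of 264 against 84. These are counts without correction for transcript length, so they rank the entries as carriers of counts and not by level.

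Within libraries, the ratio of MSTRG.6132 to MSTRG.26401 counts needs no scaling between libraries. Over all barcodes it was 0.375 (interval 0.205 to 0.657) in hypostome 1 and 0.4598 (0.308 to 0.676) in hypostome 2. In the regenerating libraries it was 1.05 (0.797 to 1.37) for 0 h, 1.05 (0.824 to 1.35) for 4 h and 2.25 (0.628 to 9.999) for 12 h. The hypostome ratios lay below all regenerating ones. In barcodes with at least 200 genes the gap was smaller, with 0.333 (0.129 to 0.767) and 0.885 (0.482 to 1.61) in the hypostome, against 1.05 (0.788 to 1.41) for 0 h and 1.11 (0.860 to 1.43) at 4 h, and at 12 h only 2 counts of MSTRG.26401 and 0 of MSTRG.6132 remained. In barcodes with at least 500 genes it was 0.368 (0.131 to 0.915) and 0.857 (0.431 to 1.69) in the hypostome, against 1.52 (0.894 to 2.63) at 0 h and 3.47 (2.06 to 6.13) at 4 h.

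The 12 h library stood apart in its beta-catenin entries. Over all barcodes the 2 Sc4wPfr entries held 41 of 54 beta-catenin counts there (75.9%, interval 62.4 to 86.5). Their share was 12.0% in hypostome 1, 9.93% in hypostome 2, 15.5% at 0 h and 19.6% at 4 h. Both descriptions shared this. For catenin_betalike the Sc4wPfr and MSTRG entries had 20 and 4 counts at 12 h, against 19 and 109 at 0 h. For betacatenin_1 they had 21 and 9 counts at 12 h, against 22 and 114 at 0 h. Many other descriptions did likewise in that library. Among 358 descriptions held by 1 Sc4wPfr and 1 MSTRG entry, with at least 20 counts in every library, the Sc4wPfr share was highest at 12 h in 215 (60.1%), and both highest at 12 h and above 50% there in 113 (31.6%). The median Sc4wPfr share of these descriptions was 45.1% in the 12 h library and between 24.9% and 29.5% in the other 4 libraries. Summed over 2711 such descriptions with no minimum, though, the Sc4wPfr share was lowest at 12 h, at 21.7% against 34.6 to 38.9% in the other libraries, and in barcodes with at least 200 genes it was 35.2% at 12 h against 33.4 to 38.7%. The tally per description and the summed share thus go opposite ways over all barcodes. Reverse transcriptase and transposon entries made up 15.5% of all counts at 12 h and 0.471% to 0.663% in the other libraries, and their part in the result was not tested.

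**Figure D3:**
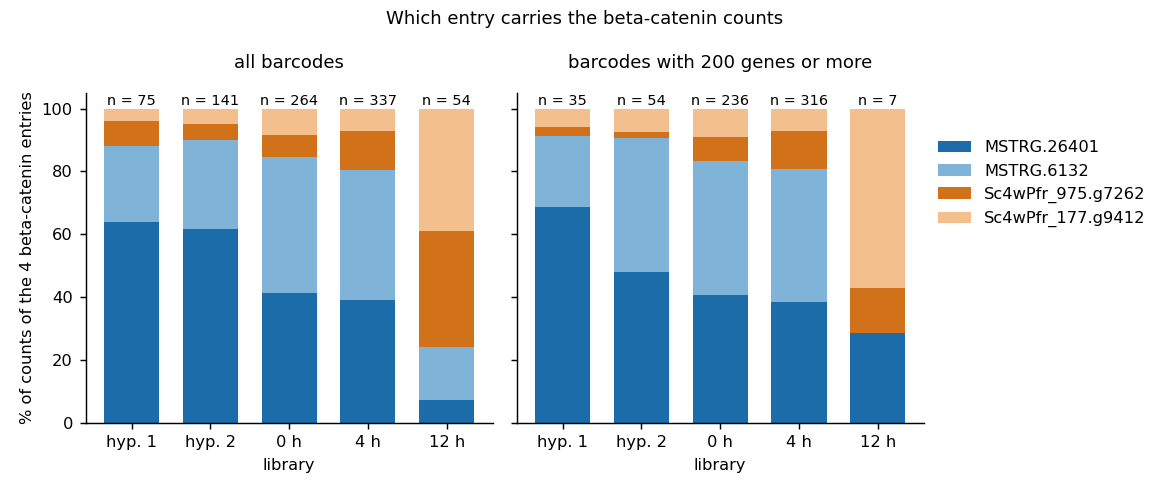
Share of beta-catenin counts (vertical axis, percent) carried by each of the 4 entries in each library, over all barcodes (left) and barcodes with at least 200 genes (right). The number above a bar is the count it divides. Over all barcodes the Sc4wPfr entries hold 75.9% at 12 h and between 9.93% and 19.6% elsewhere.

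The time points were set against 0 h to describe early regeneration. They share the 0 h library and have no replicate, so no test was run. At 4 h against 0 h the ratio of CPM was 0.651 (interval 0.513 to 0.828) for the TCF entry, 0.703 (0.534 to 0.929) for MSTRG.26401 and 0.740 (0.568 to 0.968) for MSTRG.6132. An interval below 1 was also found for 58.3% of 5570 entries with at least 50 counts over both libraries, so these ratios lie with the bulk, and an interval above 1 for 4.7%. Over all barcodes the 3 ratios were 0.616, 0.704 and 0.709, where 59.1% of 5923 entries had an interval below 1 and 4.63% one above. With MSTRG.22171 left out of the totals they were 0.879 (0.692 to 1.117), 0.949 (0.720 to 1.25) and 0.999 (0.766 to 1.31), and each interval held 1. Sc4wPfr_975.g7262 had a ratio of 1.18 (0.656 to 2.19) and Sc4wPfr_177.g9412 one of 0.611 (0.323 to 1.16).

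At 12 h the barcodes with at least 200 genes held few of these counts. The ratio of 12 h over 0 h was 1.15 (interval 0.413 to 2.56) for the TCF entry and 0.525 (0.0627 to 1.95) for MSTRG.26401 there. For Sc4wPfr_177.g9412 it was 4.80 (1.20 to 14.2), from 4 counts of 1 barcode, in a comparison where 25.7% of 3087 entries had an interval below 1 and 8.55% one above. Over all barcodes the ratio was 0.0619 (interval 0.0166 to 0.163) for MSTRG.26401, 0.133 (0.0594 to 0.262) for MSTRG.6132 and 0.447 (0.307 to 0.637) for the TCF entry. An interval below 1 was found for 56.7% of 5299 entries and one above 1 for 32.1%. The Sc4wPfr entries had ratios of 1.78 (0.899 to 3.52) and 1.61 (0.842 to 3.07). So both MSTRG beta-catenin entries were lower in the 12 h library, while the intervals of the Sc4wPfr entries with the same descriptions held 1.

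Breadth was measured as the share of barcodes with at least 1 count, after thinning each barcode to 200 counts. The TCF entry was found in 4.55% (interval 1.49 to 10.3) and 5.36% (2.48 to 9.93) of hypostome barcodes, against 1.84% (1.34 to 2.48) of those at 0 h, 1.15% (0.788 to 1.62) of the 4 h barcodes and 1.56% (0.0396 to 8.40) of the 12 h barcodes. Both hypostome shares were above all 3 regenerating shares, by 3.43 percentage points in the mean (exact permutation test over libraries, two-sided, p = 0.1, the smallest that 10 splits allow). Without thinning the shares were 20% and 16.1% in the hypostome, against 4.55% at 0 h, 4.42% at 4 h and 4.69% at 12 h. With all barcodes thinned to 100 counts the gap was 0.576 points and the tissues overlapped (exact permutation p = 0.3). Any of the 4 beta-catenin entries was found in 0.909% and 4.76% of hypostome barcodes, against 2.79% at 0 h, 2.01% at 4 h and 3.13% at 12 h, with overlap between tissues (exact permutation p = 1). Without thinning these shares were 20% and 17.9% in the hypostome, against 7.89% at 0 h, 7.91% at 4 h and 4.69% at 12 h, and did not overlap (exact permutation p = 0.1). MSTRG.26401, whose summed level separated the tissues, was found in 0 of 110 thinned barcodes of hypostome 1 and 3 of 168 of hypostome 2, against 29 of 2332 for 0 h, 29 of 2782 for 4 h and 0 of 64 for 12 h, so a gap in breadth was not detectable at this depth. Unthinned, its share averaged 11.7% in the hypostome and 3.01% in the regenerating libraries, without overlap (exact permutation p = 0.1). In the deeper barcodes, thinned to 500 counts, its share averaged 7.57% in the hypostome and 1.66% in the regenerating libraries, without overlap (exact permutation p = 0.1).

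The ratio of TCF to MSTRG.26401 counts did not separate the tissues. It was 1.63 (interval 0.953 to 2.82) in hypostome 1 and 2.12 (1.30 to 3.51) in hypostome 2, against 1.38 (1.05 to 1.81) for 0 h, 1.27 (0.997 to 1.63) for 4 h and 3 (0.536 to 30.4) for 12 h. The mean log2 ratio was 0.09 higher in the hypostome (exact permutation test, two-sided, p = 1). Without the 12 h library, which had 6 and 2 counts, the tissues did not overlap and the difference was 0.49 (exact permutation p = 0.333, which 6 splits cannot go below). Over all barcodes 4 libraries lay between 1.21 and 1.39, and the 12 h library, with 40 and 4 counts, was at 10 (3.61 to 38.5). Against the sum of all 4 beta-catenin entries the TCF ratio was 1.11 (0.688 to 1.81) in hypostome 1 and 1.02 (0.687 to 1.51) in hypostome 2. It was 0.559 (0.449 to 0.695) for 0 h, 0.487 (0.399 to 0.593) for 4 h and 0.857 (0.238 to 2.98) for 12 h, below both hypostome ratios but with intervals that overlap theirs at 0 h and 12 h.

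Barcodes with beta-catenin and TCF counts overlapped, but depth differed between the sets compared. At 0 h a beta-catenin count was found in 20.8% (interval 13.5 to 29.7) of the 106 barcodes with a TCF count, against 7.28% (6.23 to 8.44) of the 2226 without, at median depths of 489 and 440 counts. At 4 h the shares were 20.3% (13.6 to 28.5) of 123 barcodes with and 7.33% (6.37 to 8.39) of 2659 without a TCF count, at 817 and 739 counts. In hypostome 2 they were 33.3% (16.5 to 54.0) of 27 barcodes with and 14.9% (9.46 to 21.9) of 141 without, and in hypostome 1 27.3% (10.7 to 50.2) of 22 with and 18.2% (10.8 to 27.8) of 88 without, where the TCF-positive barcodes were far deeper, at medians of 2680 against 544 and of 1050.5 against 552 counts. The part of depth in these shares was not tested.

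A clustering of the 310 deepest barcodes (500 genes or more), made without the 5 entries, placed the TCF entry in 1 cluster above the others. The cluster was named neuron-like from neuropeptide precursors among its leading entries (RFamide, LWamide and Hym-355), with 12 of 72 neuronal markers at least 4-fold higher than in the rest. Claspin, a DNA replication checkpoint protein, and a nucleolar protein 58-like entry were also among its 10 leading entries. It held 10 barcodes of hypostome 1 and 7 of hypostome 2, against 4 at 0 h, 8 at 4 h and none (0) at 12 h. Its TCF level was 781 CPM (interval 595 to 1008), and the 7 other clusters lay between 52.0 and 134 CPM. Though it held 6.65% of all counts, it carried 59 of the 157 TCF counts. A TCF count was found in 65.5% (45.7 to 82.1) of its 29 barcodes at a median of 2299 counts, in 30.2% (17.2 to 46.1) of nematocyte lineage-like barcodes at 3913 counts, and in 11.3% (4.27 to 23.0) of the 53 barcodes of unnamed cluster 7 at 1538 counts. Among 2786 entries with at least 50 counts, 2.80% were at least 4-fold higher in this cluster than in the others, and 1.44% were as far above the others as the TCF entry, at 8.45 times. No test is given, since the cells were grouped by their expression.

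The same held within each library that had such barcodes. The TCF level was 642 CPM (interval 332 to 1122) in neuron-like and 198 CPM in other barcodes of hypostome 1, and 1259 CPM (837 to 1820) and 98.0 CPM in hypostome 2. It was 990 CPM (453 to 1880) in neuron-like and 87.6 CPM in other barcodes at 0 h, and 392 CPM (188 to 721) and 73.7 CPM at 4 h. Counted without clusters, barcodes of at least 200 genes with 3 or more counts of 13 neuropeptide precursor entries had a TCF level of 772 CPM in hypostome 1, 677 CPM in hypostome 2, 920 CPM at 0 h and 200 CPM at 4 h. Barcodes with no such count had 186, 216, 91.3 and 60.2 CPM in the same libraries, and at 12 h no barcode reached 3.

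**Figure D4:**
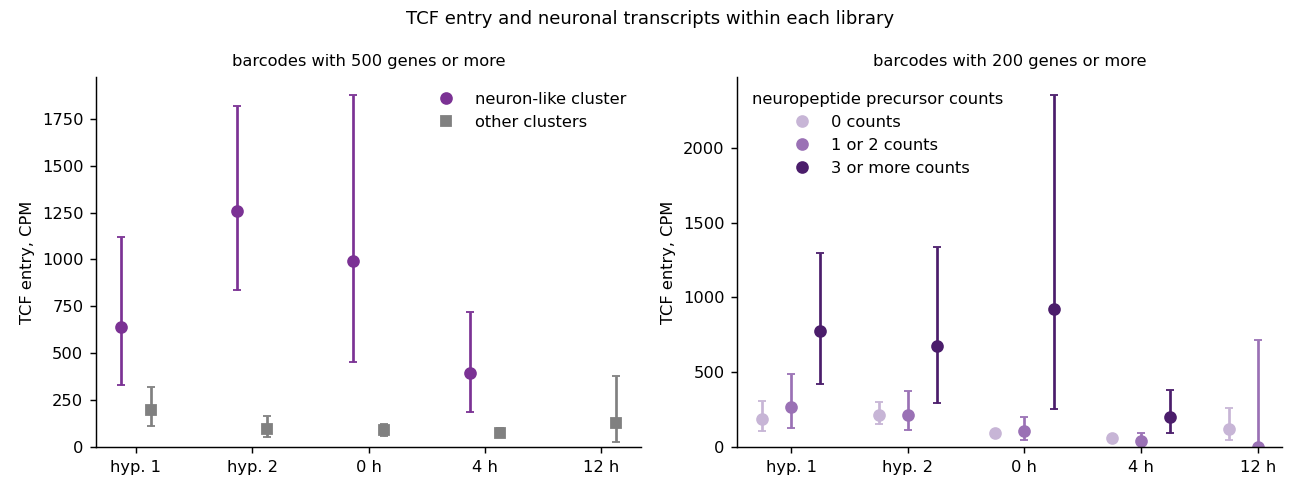
TCF level in CPM (vertical axis) by library. Left, the neuron-like cluster (purple) and all other clusters (grey) among barcodes with at least 500 genes; right, barcodes with at least 200 genes grouped by their neuropeptide precursor counts. Bars are exact Poisson intervals (95%). The neuron-like barcodes stand at 392 to 1259 CPM, above 73.7 to 198 CPM in the others.

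Like the TCF entry and 25.7% of the 3022 entries tested, neuropeptide precursors as a sum kept the tissues apart, hypostome first. These precursors differed from the TCF entry in the size of the gap and in the order of the regenerating libraries. Their 13 entries together had 9803 and 2415 CPM in the hypostome libraries, against 110 CPM at 0 h, 154 CPM at 4 h and 127 CPM at 12 h. Of the 13 entries 9 had a count in each hypostome library, against 7 at 0 h, 9 at 4 h and 3 at 12 h, and all others were at 0. With the barcodes of 3 or more such counts left out, a setting chosen after seeing the data, the TCF log2 fold change was 1.04 ± 0.44 (SE, edgeR, unadjusted p = 0.0579, adjusted p = 0.526), beside 1.29 with them. Barcodes with no neuropeptide count, a split also chosen after seeing the data, had TCF levels of 186 and 216 CPM in the hypostome, against 91.3 CPM at 0 h, 60.2 CPM at 4 h and 120 CPM at 12 h. The part of neuronal transcripts in the difference between tissues was not tested beyond these values. In summed counts, more cells of a kind and more RNA per cell cannot be told apart.

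Beta-catenin entries were spread differently over the clusters. MSTRG.26401 was at 265 CPM (interval 162 to 409) in the neuron-like cluster and 208 CPM (111 to 356) in unnamed cluster 4, led by centrosomal and ciliary entries such as CEP290, a protein of the ciliary base. It was at 17.4 CPM (5.66 to 40.7) in unnamed cluster 0. MSTRG.6132 was highest in that same cluster 0, at 206 CPM (157 to 265). Entries described as Antigen_KI, nucleolar 58 and a DNA polymerase delta subunit were among its leading entries, as were endonuclease and reverse transcriptase entries. Of 35 entries matched as stem cell markers (such as vasa, PCNA and histone), 0 were at least 4-fold higher there. That holds for this clustering only. At Leiden resolution 1.5 there was a cluster of 26 barcodes led by vasa. Another of 24 barcodes, 11 of them from 12 h, was led by reverse transcriptase entries. Each had 1 stem cell marker at least 4-fold higher. MSTRG.6132 was at 16.0 CPM (0.406 to 89.3) in cluster 4 and 18.7 CPM (2.27 to 67.7) in the endodermal epithelium-like cluster. Cluster 0 held 59 of the 129 MSTRG.6132 counts and 5 of the 84 MSTRG.26401 counts. These 2 entries, with different beta-catenin descriptions, were highest in different clusters. Cluster 0 also held 12 of the 13 barcodes at 12 h, which had 0 counts of both entries.

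**Figure D5:**
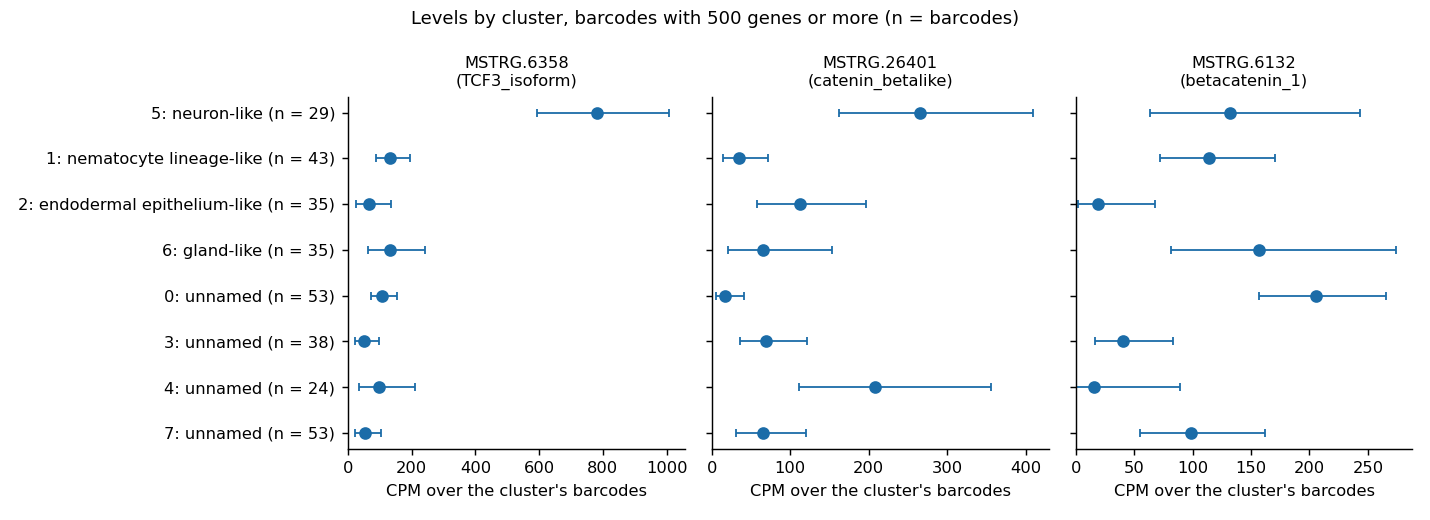
Levels in CPM (horizontal axis) of the TCF entry, MSTRG.26401 and MSTRG.6132 in each of the 8 clusters of barcodes with at least 500 genes, with the number of barcodes. Bars are exact Poisson intervals (95%). The TCF entry stands at 781 CPM in the neuron-like cluster, and MSTRG.6132 at 206 CPM in cluster 0, where MSTRG.26401 is at 17.4 CPM.

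Other entries of the pathway were mostly too sparse. Of 72 entries matched by description, 11 could be tested, 0 passed and 9 had a positive log2 fold change. The median of the 11 was 0.53, beside 0.01 over all 3022 entries. The filter on counts asks for a minimum level in 2 libraries, which the hypostome pair alone can meet. Several of the positive entries, axin and Sp5 among them, met it only there. So the number of positive entries and the median partly reflect the filter, and they are given as description. No Wnt ligand or frizzled receptor entry (0 of 15) and no junction entry such as cadherin (0 of 15) passed the filter on counts. The sums of Wnt ligand and of frizzled entries given next were chosen after their values were seen. Over all barcodes the 12 Wnt ligand entries, matched by description, had 24 and 44 counts in the hypostome libraries. They had 17 counts at 0 h, 16 at 4 h and 32 at 12 h. Their levels were 66.2 and 52.8 CPM in the hypostome, against 10.8 CPM at 0 h, 5.90 CPM at 4 h and 34.2 CPM at 12 h, with the hypostome above. In barcodes with at least 200 genes they were 87.8 and 60.7 CPM in the hypostome, against 8.62 CPM at 0 h, 6.01 CPM at 4 h and 90.5 CPM, from 5 counts, at 12 h, and the tissues overlapped. The 3 frizzled entries, the Wnt receptors, had 79.9 and 62.4 CPM in the hypostome, against 72.3 CPM at 0 h, 24.0 CPM at 4 h and 4.28 CPM at 12 h over all barcodes, and the tissues overlapped. Of 16 entries of the cytoplasmic machinery 5 were tested, and axin, Sc4wPfr_365.g14938, the scaffold of the destruction complex, had the only unadjusted p under 0.05. Axin had 51.2 and 43.4 CPM in the hypostome libraries, against 12.2 CPM at 0 h, 10.8 CPM at 4 h and 36.2 CPM at 12 h. These rest on 7, 10, 17, 27 and 2 counts, and at 12 h 3 counts would be 54.3 CPM. Axin was tested only because both hypostome libraries reached the level of the filter, so its p is not used as support. The log2 fold change of axin was 1.499 ± 0.594 (SE, edgeR, adjusted p = 0.438). By edgeR 11% of all 3022 entries had an unadjusted p under 0.05. Casein kinase 1 alpha, MSTRG.16781 in its isoform X4 entry, which primes beta-catenin for destruction, had 175.6 and 113 CPM in the hypostome, against 131 CPM at 0 h, 86.2 CPM at 4 h and 90.5 CPM at 12 h. Its log2 fold change was 0.14 ± 0.45 (SE, edgeR, adjusted p = 0.992).

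Dickkopf entries, listed here by description under extracellular inhibitors, included 4 that were tested. The descriptions do not show whether each inhibits Wnt signalling. Both entries described as dickkopf Dlp2 precursor were uneven between the hypostome libraries. MSTRG.3546 had 7.32 and 303 CPM there, against 79.7 CPM at 0 h, 89.4 CPM at 4 h and 0 at 12 h. Sc4wPfr_134.g20117 had 29.3 and 182 CPM in the hypostome, against 329 CPM at 0 h, 551 CPM at 4 h and 0 at 12 h. MSTRG.4545, described as dickkopf-related 3-like, had 132 and 173 CPM in the hypostome, against 23.0 CPM at 0 h, 59.3 CPM at 4 h and 0 at 12 h. Its log2 fold change was 1.62 ± 0.87 (SE, edgeR, adjusted p = 0.6), beside 0.89 ± 1.34 and -1.94 ± 1.58 (SE) for the pair of Dlp2 entries. The TLE 4 corepressor, MSTRG.24498 in its isoform X2 entry, a partner of TCF when no beta-catenin is bound, had 168 and 126 CPM in the hypostome, against 81.9 CPM at 0 h, 61.7 CPM at 4 h and 109 CPM at 12 h. Its log2 fold change was 0.53 ± 0.46 (SE, edgeR, adjusted p = 0.832). The isoform X3 entry of the same identifier, which was too sparse to test, had 29.3 and 4.34 CPM in the hypostome, against 33.8 CPM at 0 h, 32.9 CPM at 4 h and 18.1 CPM at 12 h, and did not follow that order. Sp5, a transcription factor that restrains Wnt3 in Hydra, had 73.2 and 73.7 CPM in the hypostome, against 26.6 CPM at 0 h, 41.3 CPM at 4 h and 0 counts at 12 h. Its log2 fold change was 0.80 ± 0.69 (SE, edgeR, adjusted p = 0.832), and it is named here after its values were seen. Sp5 passed the filter on counts only through the hypostome libraries.

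Patterns over the 5 libraries were compared over all barcodes by the root mean square difference of centred log2(CPM + 5), among 1763 described entries with a mean of at least 50 CPM. The entries most like MSTRG.26401 were a galactose-3-O-sulfotransferase 3-like entry (difference 0.0831, against a median of 0.952), a histidine-rich entry, neurocalcin, ELAV 3 and an arminin-like peptide. The sulfotransferase entry had 226 CPM in hypostome 1 and 155 CPM in hypostome 2, against 121 CPM at 0 h, 77.0 CPM at 4 h and 9.62 CPM at 12 h. For the TCF entry they were the regulatory subunit of glutamate-cysteine ligase (0.152, against a median of 0.730), a trichohyalin-like entry, a katanin p60-like entry, a tubulin alpha 1 entry and CCR4-NOT subunit 4. The likeness rests on 5 libraries that share scaling and depth, and it is a description.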

How the data were processed

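Counts per entry and cell barcode were deposited by the authors as whole numbers without normalization. Per the submitters' processing notes kallisto 0.46.1 was used, and the genome build and annotation are not given in the sources used here. Whether counts are molecules or reads is not stated, and reads would make every interval too narrow. The libraries held 55274 to 2495372 counts in barcodes with at least 200 genes.

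Counts were summed per library and tested with edgeR 4.0.16 (R 4.3.3, TMM, filterByExpr, quasi-likelihood, Benjamini-Hochberg). The SE given for edgeR was derived as the absolute log2 fold change over the square root of the F statistic. It is approximate and need not match the p, as for casein kinase 1 alpha (0.14 ± 0.45, edgeR, unadjusted p = 0.928). Time points are not replicates, so time enters the spread. Barcodes were clustered with scanpy 1.11.5 (2000 variable genes, 30 components, 15 neighbours, Leiden resolution 0.8) and doublets were not called. A cluster was named when at least 3 markers were 4-fold higher and 2 were among its 10 leading entries. Named entries are the 5 members, tested pathway entries of at least 50 CPM, axin and Sp5 (chosen after their values were seen) and the 5 most alike entries. Members and lists were chosen with earlier results of these data known. Alternatives were DESeq2 1.42.0, limma 3.58.1 on log2(CPM + 5), other scalings, filters and barcode sets, thinning, and leaving out each library.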

Additional observations from a re-analysis of the deposited data

Results flagged for a closer look

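Some values lie outside the barcodes or entries that the comparisons use. In barcodes with fewer than 200 genes the TCF entry was measured at 111 CPM (interval 71.6 to 163) in hypostome 1 and 105 CPM (80.4 to 134) in hypostome 2, against 103 CPM (61.8 to 160) at 0 h, 27.5 CPM (10.1 to 59.9) at 4 h and 38.6 CPM (26.8 to 54.0) at 12 h. There the hypostome and 0 h levels lay within each other's intervals, unlike in the barcodes used. An entry described as transcription factor 7, Sc4wPfr_319.g27364, which is no member, had 11 counts over all barcodes, more than the 3 counts taken as the limit of a zero.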

How the results depend on the processing

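The labels give the regenerating libraries no replicate number. With the number that ends each deposited column name as a replicate block, a setting added after seeing the data, edgeR called 0 entries (186 had an unadjusted p under 0.05), and the log2 fold change was 1.29 for TCF, 1.01 for MSTRG.26401 and 0.31 for MSTRG.6132, with adjusted p of 0.847 for TCF. Differences between the numbers had a correlation of -0.0125 across 3022 entries between the tissues. In the regenerating libraries that difference sets 4 h against 0 h and 12 h, so number and time cannot be told apart. Whether samples with the same number share more than the number was not tested. Entries called numbered 0 with edgeR (332 had an unadjusted p under 0.05), 6 with DESeq2, 0 with limma, 4 with library totals, 10 with no filter and 314 with a term for each time point, and between 0 and 180 when a library was left out, the highest without 12 h. The TCF entry did not have the largest fold under every setting. With all barcodes it had 0.85 against 1.28 for MSTRG.26401, with at least 500 genes 1.46 against 1.81, and with a term for each time point 1.26 against 2.96 for MSTRG.6132. The log2 fold change of MSTRG.6132 was -0.10 with no filter, -0.15 with all barcodes and -0.088 with at least 500 genes, and ranged from -0.30 to 0.61 when a library was left out, negative without hypostome 2 or 12 h. Where 1 hypostome library remained, it was assumed to vary like the others. The ratio of 4 h over 0 h was 1.08 for MSTRG.26401, 1.14 for MSTRG.6132 and 1.00 for TCF with TMM-scaled totals, 0.949, 0.999 and 0.879 without MSTRG.22171, and 1.37 for MSTRG.6132 and 0.830 for TCF with at least 500 genes. With all barcodes the 12 h ratio of MSTRG.26401 was 0.0619, against 0.525 with at least 200 genes; with at least 500 genes no beta-catenin entry had a count at 12 h and no ratio is given. The breadth difference of MSTRG.6132 was -0.483 points with at least 500 genes. Leaving out a library gave -0.762 to 1.02 points for MSTRG.26401 and -1.73 to 2.12 for any beta-catenin entry. The log2 difference of the TCF to MSTRG.26401 ratio was -0.93 with all barcodes, -0.17 with at least 500 genes and -0.13 to 0.49 when a library was left out. The neuron-like TCF level was 781 and 783 CPM at Leiden resolutions of 0.5 and 1.5. The cluster held 29 barcodes at 0.5, as at 0.8, and 30 at 1.5, so these levels are not separate observations. The causes were not tested, and depth at 12 h limits every value there.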
